A study of Mus musculus with 12 samples.

Results

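The machinery that cuts and rejoins the antigen receptor genes of developing lymphocytes was followed in the mouse thymus through 10 genes chosen by name: Rag1, Rag2, Dntt, Xrcc5, Xrcc6, Prkdc, Dclre1c, Lig4, Xrcc4 and Nhej1. All 10 were found among the 22843 gene symbols of the deposited mRNA table, and all 10 were among the 14805 genes that passed the filter on low counts. Whole thymuses of untreated, wild type male C57BL/6 mice were sequenced as ribosomal RNA-depleted RNA at 2 weeks (2W), 6 weeks (6W) and 3 months (3M) of age, with 2 biological replicates per age. The study compared 6W with 2W for the growth of the organ and 3M with 6W for the start of its decline, and 3M was also set against 2W here. Each library held 16519753 to 22553481 estimated counts. The DP thymocyte markers Cd4, Cd8a and Arpp21 averaged 653, 1106 and 356 CPM (counts relative to the scaled size of the library) at 3M and more at 2W, so the defining markers of the labelled tissue were present throughout. In whole tissue, fewer cells of a type and less RNA per cell cannot be told apart.

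V(D)J recombination assembles a receptor gene from separate V, D and J segments. The RAG recombinase, made of the proteins of Rag1 and Rag2, recognises the signal sequences beside the segments and cuts, leaving hairpin-sealed coding ends. The Ku heterodimer (Xrcc6 and Xrcc5) binds the broken ends, the kinase DNA-PKcs (Prkdc) with the nuclease Artemis (Dclre1c) opens the hairpins, terminal deoxynucleotidyl transferase (Dntt) adds untemplated nucleotides, and DNA ligase IV (Lig4) with its partners XRCC4 (Xrcc4) and XLF (Nhej1) seals the joint. In the thymus, the β, γ and δ loci recombine in double negative (DN) cells and the α locus in CD4+CD8+ double positive (DP) cells, and Rag1, Rag2 and Dntt are largely restricted to lymphocyte precursors, whereas the end joining genes are used by nearly every cell.

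The windows of 250 bases before the starts of Rag1, Rag2 and Dntt are shown because these 3 genes are the lymphocyte-specific part of the machinery and because, although none was called, Rag1 and Rag2 lay lower and Dntt higher at 6W than at 2W. They come from RefSeq on the build GRCm38.p6, in which 9 of the 10 genes had an entry (all but Prkdc). Rag1 lies at chr2:101649533-101649782 on the minus strand, Rag2 at chr2:101624462-101624711 on the plus strand, and Dntt at chr19:41029025-41029274 on the plus strand. Capitals mark the E box letters CANNTG, bound by E proteins such as those of Tcf3 and Tcf12, and the Runx core TGTGGT, each searched on both strands.
Rag1: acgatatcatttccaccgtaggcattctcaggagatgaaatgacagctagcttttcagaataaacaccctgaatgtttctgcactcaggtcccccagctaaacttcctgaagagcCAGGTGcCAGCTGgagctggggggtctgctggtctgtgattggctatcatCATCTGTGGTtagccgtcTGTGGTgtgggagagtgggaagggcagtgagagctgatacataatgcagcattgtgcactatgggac
Rag2: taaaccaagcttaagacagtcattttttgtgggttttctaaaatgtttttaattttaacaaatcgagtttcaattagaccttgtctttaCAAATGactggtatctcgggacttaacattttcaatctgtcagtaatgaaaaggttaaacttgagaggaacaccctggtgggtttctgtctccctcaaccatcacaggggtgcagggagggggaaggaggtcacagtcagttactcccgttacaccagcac
Dntt: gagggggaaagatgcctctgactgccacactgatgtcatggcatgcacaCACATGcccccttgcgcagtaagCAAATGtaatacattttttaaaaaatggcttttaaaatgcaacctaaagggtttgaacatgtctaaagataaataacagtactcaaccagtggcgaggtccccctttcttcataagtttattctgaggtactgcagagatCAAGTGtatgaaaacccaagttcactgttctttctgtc
The Rag1 window held 3 CANNTG, a number reached by 12.2% of the 32851 windows in the table, and 2 TGTGGT, a number reached by 1.27%. One of its CANNTG shares its last 2 letters with a TGTGGT. The Rag2 window held 1 CANNTG, as at least 66.2% of windows did, and no TGTGGT, and the Dntt window held 3 CANNTG and no TGTGGT. These matches are letters only. No binding was measured in this study, and the motifs were chosen after the windows had been read.

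Among the genes of the table, Rag1 ranked 1 by estimated counts in each of the 6 libraries. Its single transcript (ENSMUST00000078494) took 0.900% and 1.07% of all counts at 2W, 0.841% and 0.813% at 6W, and 0.764% and 0.773% at 3M. Per transcript length, in FPKM as deposited, Rag1 ranked between 9 and 27. The 10 genes spanned a wide range on this scale, with a mean over the 6 libraries of 1215 ± 161 FPKM (SD, n = 6) for Rag1, 706 ± 73.6 for Dntt, 130.5 ± 25.9 for Xrcc6, 105 ± 17.4 for Rag2 and 36.2 ± 9.46 for Lig4. Xrcc5, Xrcc4, Dclre1c and Prkdc followed at 15.6 ± 1.36, 13.4 ± 1.58, 11.9 ± 1.34 and 10.97 ± 1.67 FPKM, and Nhej1 was the lowest at 2.15 ± 0.762 FPKM. Rag1 exceeded Dntt in every library, and Lig4 exceeded Xrcc5 in every library. The ranges over libraries overlapped for the neighbours Xrcc6 and Rag2, Xrcc5 and Xrcc4, Xrcc4 and Dclre1c, and Dclre1c and Prkdc, but the range of Xrcc5 lay above those of Dclre1c and Prkdc. The partners of a complex therefore had unequal mRNA levels per length: Rag1 stood far above Rag2, Xrcc6 above Xrcc5, and Lig4 above Xrcc4 and Nhej1.

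**Figure D1:**
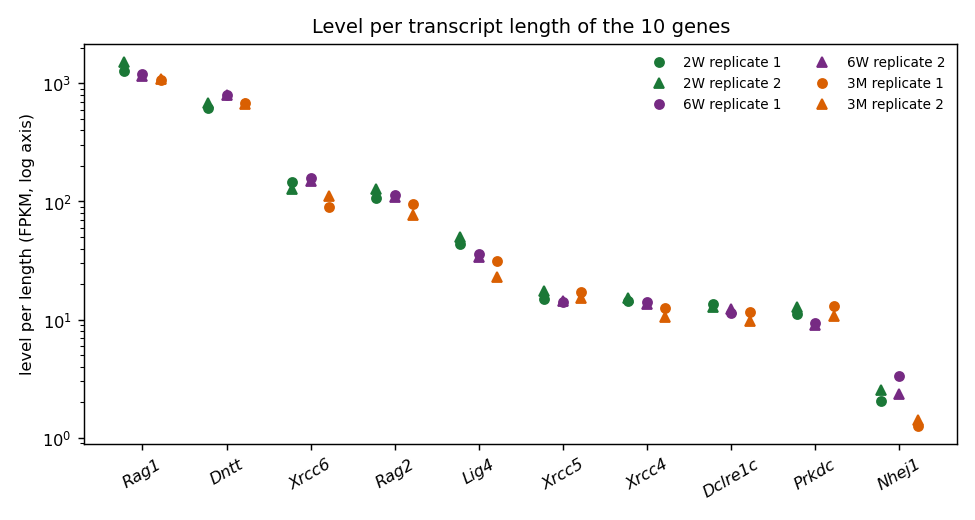
Level per transcript length (FPKM summed over the transcripts of a gene, log axis) of the 10 genes in each of the 6 thymus libraries, with circles for replicate 1 and triangles for replicate 2 and colours for 2W, 6W and 3M. Rag1 and Dntt lie above the other 8 genes in every library, and Nhej1 is the lowest at 1.26 to 3.32 FPKM.

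Between 2W and 6W, the levels of Rag1 and of most end joining genes were lower while that of Dntt was higher, but no member passed the test after adjustment. Rag1 had 9404 and 11178 CPM at 2W against 8340 and 8087 CPM at 6W. The groups did not overlap, and the difference was −0.33 on the log2 scale (SE 0.10, 95% interval −0.55 to −0.10, adjusted p = 0.152, edgeR quasi-likelihood test with Benjamini-Hochberg adjustment over all 14805 genes). Rag2 had 267 and 316 CPM at 2W against 263 and 258 CPM at 6W, ranges that came close without overlapping (log2 fold change −0.16, SE 0.15, adjusted p = 0.600). Without 2W replicate 2, the library with the highest Rag1 and Rag2, these log2 fold changes were −0.17 for Rag1 and −0.0104 for Rag2, and without 2W replicate 1 that of Rag2 was −0.28. Dntt went the other way, from 1374 and 1494 CPM at 2W to 1649 and 1674 CPM at 6W, with both 6W libraries above both 2W libraries. Its log2 fold change was 0.21 (SE 0.09, interval −0.00 to 0.43, adjusted p = 0.266).

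Among the end joining genes, Lig4 differed most between 2W and 6W, with 179 and 212 CPM against 138 and 130.4 CPM. Both 6W libraries lay below both 2W libraries, by −0.54 on the log2 scale (SE 0.20, adjusted p = 0.225). Prkdc had 157 and 179.6 CPM at 2W and 124 and 122 CPM at 6W, also without overlap (−0.46, SE 0.15, adjusted p = 0.181). Dclre1c, whose product works with that of Prkdc at the hairpin, had 52.7 and 53.6 CPM against 41.7 and 43.2 CPM (−0.32, SE 0.17, adjusted p = 0.351). Xrcc5 and Xrcc4 were also lower without overlap, with adjusted p of 0.327 and 0.504 in the edgeR test, and the log2 fold change of Xrcc5 was −0.26, or −0.13 without 2W replicate 2. Xrcc6 and Nhej1 overlapped between the ages. In all, 7 of the 10 genes were lower at 6W without overlap, beside 29.8% of all tested genes, and 1, Dntt, was higher without overlap, beside 28%. In the test, 0 of the 10 genes were called at an adjusted p under 0.05, beside 1.74% of all tested genes. Rag1, Prkdc and Lig4 had an unadjusted p under 0.05, 3 of 10 genes beside 18.9% of all tested genes. DESeq2 also called 0 of the 10, beside 888 of all tested genes. None of the 10 passed the study's own threshold, an unadjusted p under 0.05 with a log2 fold change beyond 1, which 5.36% of all tested genes passed. In direction, 7 of the 10 log2 fold changes were below 0, beside 50.8% of all tested genes.

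Between 6W and 3M, Rag2, Xrcc6, Nhej1 and Dntt stood lower and Prkdc and Xrcc5 higher, again with no member called. Rag2 had 263 and 258 CPM at 6W against 225 and 173 CPM at 3M (−0.39, SE 0.16, adjusted p = 0.333 in the edgeR test). Xrcc6 went from 317 and 303 CPM to 197 and 231 CPM. The 3M libraries lay below both earlier ages, at −0.54 against 6W (SE 0.13, interval −0.84 to −0.23, unadjusted p = 0.00455, adjusted p = 0.229 in the edgeR test). Dntt returned to 1448 and 1374 CPM, the range it had at 2W (−0.24 against 6W, SE 0.09, adjusted p = 0.315). Rag1, at 7715 and 7542 CPM, lay below its 6W libraries by −0.11 (SE 0.10, adjusted p = 0.639).

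Nhej1 encodes the least expressed factor of the set and was counted thinly, with 38 and 49 estimated counts at 2W, 76 and 59 at 6W, and 24 and 35 at 3M. After scaling these were 2.40 and 3.00 CPM, 3.68 and 2.60 CPM, and 1.44 and 1.57 CPM. Its difference between 3M and 6W was −1.06 on the log2 scale (SE 0.32, adjusted p = 0.263 in the edgeR test), and it was the only one of the 10 genes past the study's threshold, beside 2.11% of all tested genes. Without 6W replicate 1, whose count was the highest, its log2 fold change was −0.79. Lig4 overlapped between 6W and 3M, with 133 and 88.7 CPM at 3M (−0.28, SE 0.20, adjusted p = 0.554). Prkdc had 179.5 and 141 CPM at 3M, both above the 6W libraries (0.38, SE 0.15, adjusted p = 0.317), and Xrcc5 had 47.5 and 41.0 CPM against 38.3 and 39.0 CPM (0.19, SE 0.13, adjusted p = 0.516). Without 3M replicate 1, the log2 fold changes of Prkdc, Xrcc5, Lig4 and Xrcc4 from 6W to 3M were 0.21, 0.09, −0.59 and −0.40, and without 3M replicate 2 those of Lig4 and Xrcc4 were −0.06 and −0.14 (with both libraries, −0.24 for Xrcc4). Prkdc and Xrcc5 were thus lowest at 6W, while Dntt was highest there. Without overlap, 6 of the 10 genes were lower at 3M, beside 23.3% of all tested genes, and 2 were higher, beside 25.9%. The edgeR test called 0 of the 10 genes, beside 0.00675% of all tested genes. At an unadjusted p under 0.05 there were 5 (Rag2, Dntt, Xrcc6, Prkdc and Nhej1), beside 14.3%. DESeq2 called 1, Xrcc6 (adjusted p = 0.0122), beside 341 of all tested genes. Of the log2 fold changes, 8 were below 0, beside 46.8%.

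**Figure D2:**
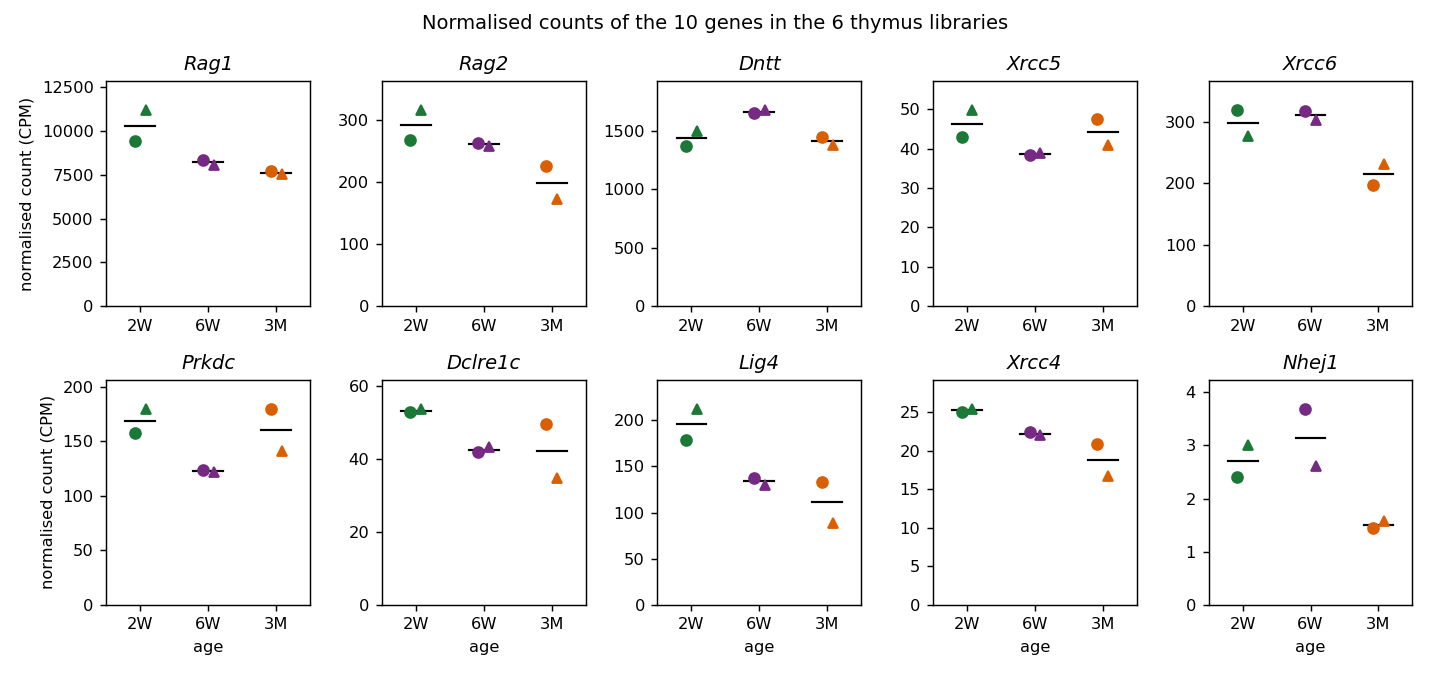
Normalised count (CPM, linear axes from 0) of each of the 10 genes at 2W, 6W and 3M, with a circle for replicate 1, a triangle for replicate 2 and a line at the mean of the 2 libraries. Rag1, Rag2, Lig4 and Xrcc4 step down from age to age in the mean, Dntt is highest at 6W, and Prkdc and Xrcc5 are lowest at 6W.

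Over the whole span from 2W to 3M, Rag1 and Lig4 fell and all 10 log2 fold changes were below 0, beside 52.7% of all tested genes. Rag1 fell by 25.9%, from a mean of 10291 ± 1254 CPM (SD, n = 2) to 7629 ± 123 CPM, with a log2 fold change of −0.43 (SE 0.10, interval −0.66 to −0.20, adjusted p = 0.0359, edgeR quasi-likelihood test). Lig4 fell by 43.3%, from 196 ± 23.5 to 111 ± 31.3 CPM, with a log2 fold change of −0.82 (SE 0.20, interval −1.30 to −0.34, adjusted p = 0.0490). These were 2 of the 10 genes, beside 11% of all tested genes called in either direction and 3.1% called lower. None of the 10 passed the study's threshold, beside 9.35% of all tested genes. Both calls sit close to the threshold. For Rag1 the adjusted p of the edgeR test was 0.101 without 2W replicate 2, which also held its highest value, 0.0922 and 0.0916 without 6W replicate 1 and 2, 0.0750 and 0.0743 without 3M replicate 1 and 2, and 0.0444 without 2W replicate 1. For Lig4 it was 0.109 and 0.161 without 2W replicate 1 and 2, 0.108 without either 6W library, 0.0651 without 3M replicate 2 and 0.0134 without 3M replicate 1. Other settings ended both calls too. The adjusted p of Rag1 and Lig4 was 0.0583 and 0.05001 under total count scaling, 0.115 and 0.0992 in a fit of the 4 libraries compared, 0.0918 and 0.0849 under a replicate block, and 0.0635 and 0.0877 from annotated transcripts alone. Exact symbols ended the call of Lig4 (0.0605), and limma on log2 FPKM that of Rag1 (0.268 and 0.311 with pseudocounts of 0.1 and 1). DESeq2 called both (0.00706 and 0.00069).

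Of the other members, Rag2 was lower at 3M by −0.55 (SE 0.16, interval −0.92 to −0.18, adjusted p = 0.0733 in the edgeR test) and Xrcc6 by −0.47 (SE 0.13, interval −0.78 to −0.17, adjusted p = 0.0634). Neither passed, although both 3M libraries lay below both 2W libraries for each. DESeq2 called both (adjusted p = 0.00651 for Rag2 and 0.0106 for Xrcc6), and edgeR without a filter on low counts called Rag2 (0.0402). Without 3M replicate 1, the adjusted p of Rag2 was 0.0299, and without 3M replicate 2, that of Xrcc6 was 0.0391. Xrcc4 had 25.04 and 25.4 CPM at 2W, 22.4 and 21.98 CPM at 6W, and 20.9 and 16.8 CPM at 3M, with a log2 fold change from 2W to 3M of −0.42 (SE 0.14, adjusted p = 0.109). Its libraries stood in the order of age without overlap, as did those of Rag1 and Rag2. Of all tested genes, 29.8% were lower without overlap at 6W than at 2W and 23.3% at 3M than at 6W. The share lower at both steps was not counted. Dclre1c, with 49.4 and 34.8 CPM at 3M, and Nhej1 were lower without overlap at −0.34 (SE 0.17, adjusted p = 0.261) and −0.84 (SE 0.33, adjusted p = 0.156). For Dclre1c the log2 fold change was −0.59 without 3M replicate 1, which passed (adjusted p = 0.0369), and −0.14 without 3M replicate 2. This made 7 of 10 genes lower without overlap, beside 24% of all tested genes, and 0 higher, beside 27.7%. Dntt, Xrcc5 and Prkdc overlapped between 2W and 3M. Their log2 fold changes were −0.02 (interval −0.24 to 0.19), −0.07 (interval −0.38 to 0.24) and −0.07 (interval −0.42 to 0.28), and each turned to above 0 when 2W replicate 2 was left out (0.04, 0.04 and 0.03). Scaled by library totals alone, those of Dntt and Xrcc5 were 0.05 and 0.00079. The median log2 fold change of the 10 genes was −0.22 for 6W against 2W, −0.24 for 3M against 6W and −0.43 for 3M against 2W, beside −0.01, 0.02 and −0.03 for all tested genes. The 3 comparisons share libraries.

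**Figure D3:**
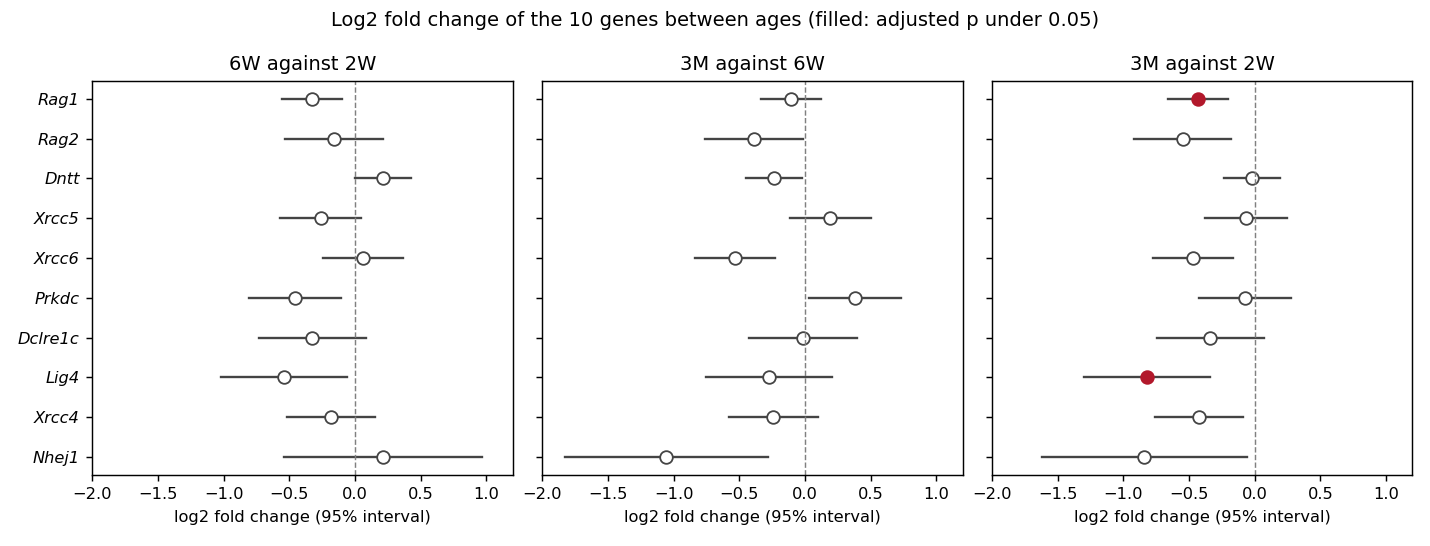
Log2 fold change of each of the 10 genes (x axis) with its 95% interval in the 3 comparisons between ages, filled where the adjusted p of the edgeR test was under 0.05. The 2 filled points, Rag1 at −0.43 and Lig4 at −0.82, are both in the comparison of 3M with 2W, where all 10 points lie below 0.

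Ratios taken within a library need no scaling between libraries, and they set the recombinase beside the enzyme that diversifies the joints. The summed counts of Rag1 and Rag2 were 7.04 and 7.69 times those of Dntt at 2W, 5.22 and 4.98 times at 6W, and 5.48 and 5.61 times at 3M. The 2W libraries stood above all later libraries, by 0.53 against 6W and 0.41 against 3M on the log2 scale, where the pooled SD of 2 libraries of an age was 0.06. Between 6W and 3M the log2 ratio differed by 0.12. Rag1 makes up nearly all of this sum, so that Rag1 against Rag2 was given on its own, with ratios of 35.2 and 35.4 at 2W, 31.7 and 31.3 at 6W, and 34.3 and 43.6 at 3M. The 2W and 3M ranges of this ratio overlapped. With 2 libraries per age, an exact permutation test of a single ratio cannot give a two-sided p below 0.333, and none was run.

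Set against the 7 end joining genes together, Rag1 and Rag2 stood at a proportion that, in counts, overlapped between 2W and both later ages. Their sum was 12.4 and 14.4 times the summed end joining counts at 2W, 12.6 and 12.6 times at 6W, and 12.6 and 13.9 times at 3M. Xrcc6, Lig4 and Prkdc held the most end joining counts in every library. From 6W to 3M their log2 fold changes were −0.54, −0.28 and 0.38, so changes within the end joining sum can offset each other. The differences of the proportion between ages were −0.09, 0.07 and −0.01 on the log2 scale for 6W against 2W, 3M against 6W and 3M against 2W, with a pooled SD of 0.10. With summed FPKM in place of counts these differences were −0.21 for 6W against 2W, 0.28 for 3M against 6W and 0.07 for 3M against 2W. On that scale the proportion was 5.60 and 6.86 at 2W, 5.32 and 5.39 at 6W, and 6.59 and 6.43 at 3M, so the overlap of 6W with 2W was lost and both 6W libraries lay lowest. In counts, Dntt stood apart from this proportion. It was 1.77 and 1.87 times the end joining sum at 2W, 2.41 and 2.53 times at 6W, and 2.30 and 2.48 times at 3M, higher at both later ages by 0.44 and 0.39 on the log2 scale with a pooled SD of 0.06.

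**Figure D4:**
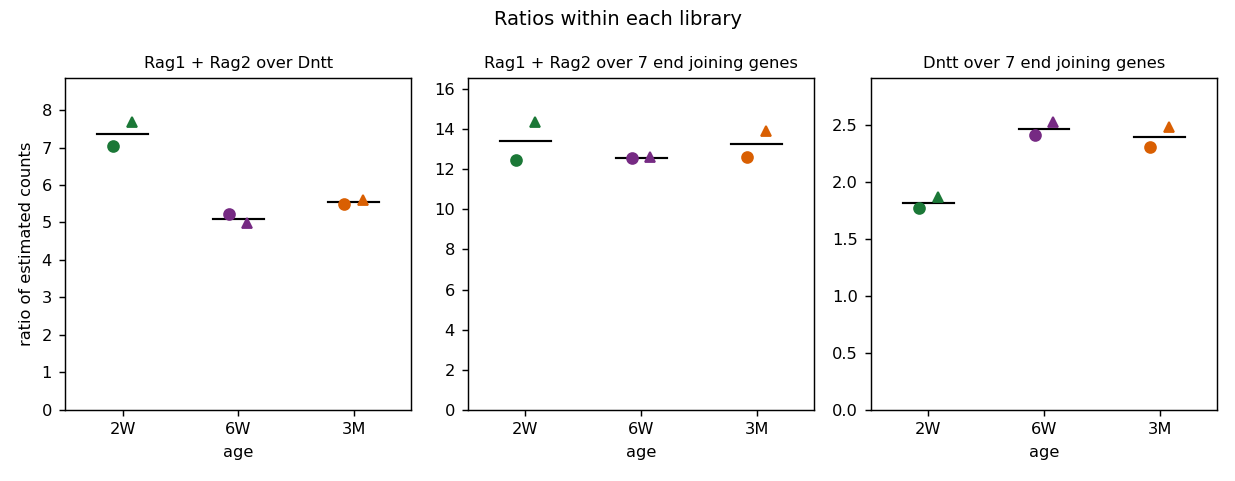
Ratio of estimated counts within each library (linear axes from 0) for Rag1 + Rag2 over Dntt, Rag1 + Rag2 over the 7 end joining genes and Dntt over the 7 end joining genes, with a circle for replicate 1, a triangle for replicate 2 and a line at the mean of the age. The first ratio is 7.04 and 7.69 at 2W and 4.98 to 5.61 later, the last is 1.77 and 1.87 at 2W and 2.30 to 2.53 later, and the middle one overlaps between 2W and the later ages.

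Markers of the thymocyte stages that use this machinery moved over the same ages. Of 10 markers of DP thymocytes, 6 were called lower at 3M than at 2W and 0 higher, beside 3.1% of all tested genes called lower (such as Cd4, Cd8a and Arpp21), with a median log2 fold change of −0.46 over the list. Their summed level was 6355 and 6449 CPM at 2W, 5601 and 5812 CPM at 6W, and 4812 and 4544 CPM at 3M. Rag1 over this sum was 1.48 and 1.73 at 2W, 1.49 and 1.39 at 6W, and 1.603 and 1.66 at 3M. The 2W and 3M ranges overlapped. Rag2 over the same sum also overlapped between 2W and 3M, at 0.0421 and 0.0489 against 0.0468 and 0.0381. Lig4 over the sum did not, with 0.0282 and 0.0329 at 2W against 0.0276 and 0.0195 at 3M, though 3M replicate 1 lay close to 2W replicate 1. The difference was −0.39 on the log2 scale with a pooled SD of 0.23. Dntt over the sum was 0.216 and 0.232 at 2W, 0.294 and 0.288 at 6W, and 0.301 and 0.302 at 3M, higher at 3M than at 2W by 0.43 on the log2 scale with a pooled SD of 0.04.

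Cycling cells, which include many DN and early DP thymocytes, were marked by 10 cell cycle genes, of which 7 were called lower at 3M than at 2W (Mki67, Top2a, Cenpf, Ccnb1, Cdk1, Aurkb and Birc5), beside 3.1% of all tested genes, and 0 higher, beside 7.91%. Their sum was 4398 and 4462 CPM at 2W, 3503 and 3547 CPM at 6W, and 3021 and 2382 CPM at 3M. Of 8 DN markers, 3 (Ptcra, Notch1 and Notch3) were called lower, beside the same 3.1%. The sum of the 8 was 1217 and 1218 CPM at 2W, 670 and 693 CPM at 6W, and 770 and 842 CPM at 3M, lowest at 6W as Prkdc and Xrcc5 were. Notch1 made up most of this sum, with means of 876, 466 and 533 CPM at 2W, 6W and 3M. In the mean, Dtx1, Hes1, Il2ra, Notch1 and Notch3 were lowest at 6W, and Erg, Kit and Ptcra at 3M. The median log2 fold change of the DN list from 2W to 3M was −0.19. The counts of called markers are those of the fit over all libraries. Over the other settings with no single library left out, 0 to 6 DP markers, 2 to 9 cycling markers and 1 to 3 DN markers were called, with 0 DP and 2 cycling markers both in the fit of the 4 libraries compared and with the replicate block. Without either 2W or either 6W library, the DP markers called were 0 of 10 and the cycling markers 0 or 1 of 10, and without 3M replicate 2 the cycling markers called were 3. The DN markers called were 0 without either 2W library and 1 without either 6W library or 3M replicate 1. Of 8 markers of mature thymocytes, whose cells have ended recombination, 2 (Il7r and Itgb7) were called higher at 3M than at 2W, beside 7.91% of all tested genes, and 0 lower. The sums of the 8 were 474 and 446 CPM at 2W, 623 and 636 CPM at 6W, and 580.4 and 582 CPM at 3M. The part of these marker changes in the levels of the recombination genes was not tested.

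Precursors of B cells are the other lineage that uses Rag1, Rag2 and Dntt. The 9 markers of B cells and their precursors summed to 50.2 to 78.3 CPM over the libraries, and the precursor genes Vpreb1, Vpreb3 and Igll1 were too low to be tested. Markers of cells that do not recombine were also counted. Of 6 adipocyte markers, 5 were called higher at 3M than at 2W, beside 7.91% of all tested genes, with sums of 39.6 and 39.4 CPM at 2W and 305 and 162 CPM at 3M. Of 6 myeloid markers, 5 were called higher, with sums of 250.4 and 227 CPM at 2W and 571 and 549 CPM at 3M. Red blood cell genes summed to 2162 CPM in 3M replicate 2, the library with the lowest Rag1, Rag2, Dclre1c, Lig4 and Xrcc4, against 401 to 814 CPM in the other 5 libraries. Of 9 thymic epithelium markers 1 was called higher and 1 lower, and of 6 fibroblast markers 2 were called higher and 2 lower. Of all tested genes, 7.91% were called higher and 3.1% lower. The marker changes of these cell types are given as values only. Their part in the results was not tested.

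The accessory and break sensing genes of the wider pathway were followed in the same fit. None of 12 accessory end joining genes (such as Paxx, Polm, Poll and Aplf) and none of 12 break sensing genes (such as Atm, Nbn and Trp53bp1) was called by the edgeR test in any comparison, beside 1.74%, 0.00675% and 11% of all tested genes for 6W against 2W, 3M against 6W and 3M against 2W. From 2W to 3M their median log2 fold changes were −0.31 and −0.23. Aplf, a scaffold that binds Ku and XRCC4, had 19.0 and 16.7 CPM at 2W and 12.8 and 12.5 CPM at 3M (−0.49, SE 0.14, adjusted p = 0.0682). Rad50, of the complex that senses breaks, had 55.9 and 53.0 CPM at 2W and 45.5 and 37.3 CPM at 3M (−0.40, SE 0.14, adjusted p = 0.121). The histone gene H2afx, whose product is phosphorylated beside breaks, differed by −0.67 with a wide spread (SE 0.24, adjusted p = 0.125). DESeq2 called H2afx (adjusted p = 0.0394), and leaving out 3M replicate 1 or 2 gave log2 fold changes of −0.35 and −1.06, the latter called (adjusted p = 0.0292). The polymerase θ gene Polq differed by −0.47 between 2W and 6W (SE 0.14, adjusted p = 0.150) and by −0.29 from 2W to 3M (SE 0.14, adjusted p = 0.230), the latter −0.17 when 3M replicate 2 was left out and −0.43 when 3M replicate 1 was. Atm, the kinase that answers RAG breaks, differed by −0.36 for 6W against 2W (SE 0.18, adjusted p = 0.343), by 0.34 for 3M against 6W (SE 0.18, adjusted p = 0.434) and by −0.01 for 3M against 2W (SE 0.18, adjusted p = 0.9746).

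Among 7 cofactors of the recombinase and regulators of its turnover, Hmgb1 and Hmgb2 fell between 2W and 3M, 2 of 7 beside 3.1% of all tested genes called lower. Their products bend DNA and help RAG to hold its signal sequences in the test tube, and both are abundant in dividing cells. Hmgb1 had 1351 and 1479 CPM at 2W, 1096 and 1195 CPM at 6W, and 955 and 751 CPM at 3M (−0.73, SE 0.14, adjusted p = 0.0223, edgeR). Hmgb2 had 440.2 and 302 CPM at 2W, 284 and 384 CPM at 6W, and 194 and 161 CPM at 3M (−1.07, SE 0.23, adjusted p = 0.0321). Both steps of Hmgb1 were without overlap between ages, beside 29.8% and 23.3% of all tested genes lower without overlap at each step alone. The call of Hmgb1 was lost without either 2W library (adjusted p = 0.0752 and 0.0880) or either 6W library (0.0618 and 0.0624), and that of Hmgb2 without 2W replicate 1 (0.129), either 6W library (0.0574 and 0.0577) or 3M replicate 2 (0.0832). With all libraries kept, the call of Hmgb1 was also lost in the replicate block (0.0577), that of Hmgb2 in the block (0.0640) and with annotated transcripts only (0.0570), and with only the 4 libraries compared that of Hmgb1 was lost (0.0590). Near-identical copies of these genes in the genome may share their reads. Skp2 and Vprbp, of the ubiquitin ligases that turn over RAG2 and bind RAG1, differed by −0.11 (SE 0.18, adjusted p = 0.748) and 0.15 (SE 0.20, adjusted p = 0.679) from 2W to 3M. Leaving out 1 library changed the sign of each, Skp2 to 0.08 without 2W replicate 2 and 0.04 without 3M replicate 2, and Vprbp to −0.11 without 2W replicate 1. Vprbp was lowest at 6W, with −0.44 against 2W (SE 0.20, adjusted p = 0.293) and 0.59 from 6W to 3M (SE 0.20, adjusted p = 0.287). The other 3 of this list were not called.

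All 13 transcription factors of the thymocyte list had log2 fold changes below 0 from 2W to 3M, beside 52.7% of all tested genes, and 2 were called lower, beside 3.1%. Bcl11b, needed for T lineage commitment, had 1054 and 1120 CPM at 2W and 737 and 691 CPM at 3M (−0.61, SE 0.09, adjusted p = 0.0131, edgeR). Tcf12, which encodes the E protein HEB, had 602 and 601 CPM at 2W and 405 and 398 CPM at 3M (−0.58, SE 0.09, adjusted p = 0.0137). Without either 2W library or either 6W library the calls of both were lost, with adjusted p of 0.0572 to 0.0693 for Bcl11b and 0.0630 to 0.0727 for Tcf12. They were also lost with only the 4 libraries compared (0.0589 and 0.0642) and with the replicate block (0.0505 and 0.0540). Myb missed the threshold at −0.50 (SE 0.12, adjusted p = 0.0501), and so did Runx1 at −0.46 (SE 0.12, adjusted p = 0.0631), while DESeq2 called both (0.00195 and 0.00554). Without 3M replicate 1 both passed as well (0.0288 and 0.0473). The other E protein gene of the list, Tcf3, differed by −0.22 (SE 0.15).

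Of the receptor genes only constant regions were tested, and whether their counts came from recombined genes was not measured. The γ chain gene Tcrg-C4 had 9.29 and 6.50 CPM at 2W, 12.1 and 12.0 CPM at 6W, and 22.7 and 17.2 CPM at 3M, and rose by 1.34 on the log2 scale from 2W to 3M (SE 0.22, adjusted p = 0.0173, edgeR). Without 2W replicate 2 its adjusted p was 0.0690. The γ constant genes are near copies of each other, so reads could have been split between them. Trbc2 differed by −0.30 (SE 0.08, adjusted p = 0.0718, and 0.0204 in DESeq2), Trbc1 by −0.29 (SE 0.11, adjusted p = 0.150), Trdc by −0.27 (SE 0.10, adjusted p = 0.148) and Trac by −0.04 (SE 0.22, adjusted p = 0.928). Trbc1 moved to −0.15 on leaving out 3M replicate 1 and to −0.44 on leaving out 3M replicate 2. The table listed 51 α and 13 β joining segments, which summed to at most 0.0883 CPM in any library and were not tested, so the use of segments was not measured here.

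**Figure D5:**
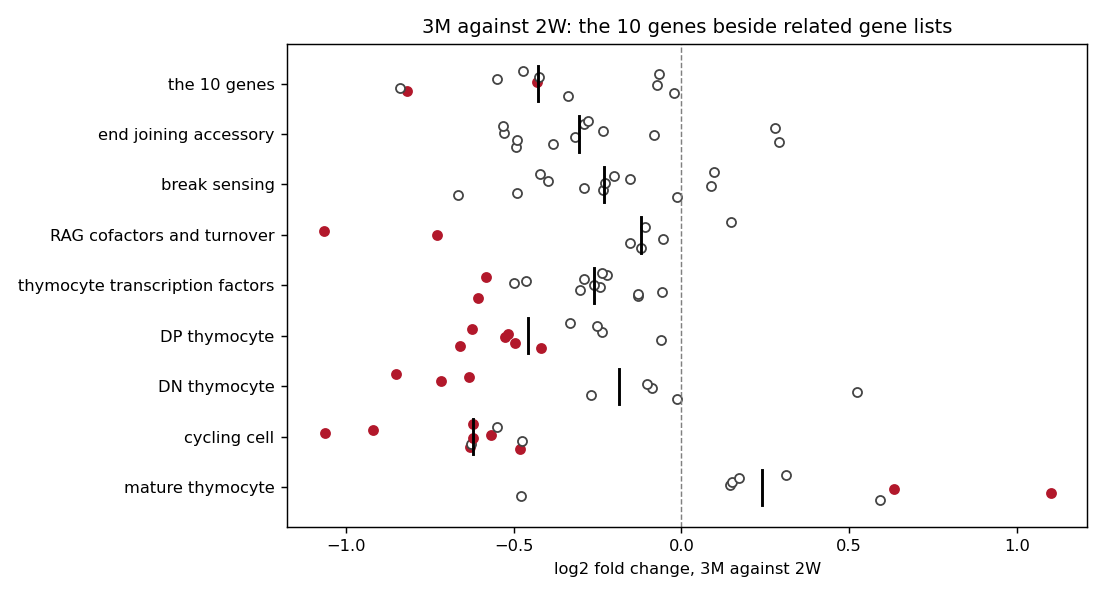
Log2 fold change from 2W to 3M (x axis) of the 10 recombination and end joining genes and of the genes of 8 related lists, with 1 point per tested gene, a line at the median of each list and filled points where the adjusted p of the edgeR test was under 0.05. The 10 genes have a median of −0.43, near the −0.46 of the DP thymocyte markers, and the cycling cell markers have a median of −0.62.

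The transcript rows show which forms carried these levels. Rag1, Prkdc, Xrcc5 and Nhej1 had 1 transcript each. Of the 2 Dntt transcripts, ENSMUST00000112200 held 84.5% to 89.3% of the gene's counts and ENSMUST00000051806 the rest. Rag2 was carried by ENSMUST00000111227 (64.2% to 68.9%) and ENSMUST00000044031, and Lig4 by ENSMUST00000170033 (46.0% to 61.3%) and ENSMUST00000095476. Among 35036 tested transcripts the edgeR test called 0% in each comparison, and 3860 had an unadjusted p under 0.05 for 3M against 2W. The Lig4 transcript ENSMUST00000170033 stepped down with age without overlap, with 31.3 and 31.6 FPKM at 2W, 25.2 and 24.2 FPKM at 6W, and 18.2 and 15.7 FPKM at 3M (3M against 2W: log2 fold change −0.93, SE 0.11, adjusted p = 0.158). The other Lig4 transcript overlapped between 2W and 3M, at 12.4 and 18.2 against 13.2 and 7.14 FPKM.

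For Xrcc6, ENSMUST00000069530 held 82.0% to 88.0% of the counts in each library. A minor transcript, ENSMUST00000230729, held 10.5% and 11.9% at 2W, 12.7% and 12.0% at 6W, and 6.63% and 7.85% at 3M, lower at 3M than in any earlier library. Its log2 fold change from 6W to 3M was −1.31 (SE 0.22, unadjusted p = 0.00195, adjusted p = 0.655 over all tested transcripts in the edgeR test). Estimated counts share reads among overlapping transcripts by a model, so the split between transcripts of a gene is less certain than its sum. Rag2, Xrcc6 and Dclre1c also overlap another protein-coding gene in RefSeq (Iftap, Desi1 and Suv39h2). The library kit marked strand, and the strand setting of the counting is not given in the sources used here.

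Circular RNAs give another readout of the same genes, counted as reads across back-splice junctions. The 10 genes gave 18 of the 6300 circRNAs and 177 of the 88955 junction counts in the deposited table, beside 1 circRNA of 2 counts that the table assigns to Xrcc6 but marks as antisense. Xrcc6 gave 7 of them, with 20 and 17 junction counts at 2W, 15 and 16 at 6W, and 19 and 7 at 3M, out of library totals of 10663 and 11117, 18740 and 21914, and 11125 and 15396. Xrcc4 gave 2, with 0 and 11 counts at 2W, 2 and 8 at 6W, and 7 and 9 at 3M. Most of these came from 1 circRNA (novel_circ_001706, chr13:89991073-90001084 on the minus strand, on a build that the table does not name), which held 34 of the 37 counts. At such counts the libraries of a single age spanned 0 to 11 for Xrcc4 and 7 to 19 for Xrcc6. Prkdc gave 24 counts in all, Xrcc5 8, Nhej1 7, Dntt 5 and Rag2 2. Rag1, Dclre1c and Lig4 had no circRNA in the table. A count of 0 allows up to 3 counts, or 137 to 281 RPM (junction counts scaled to the library's total) in these libraries, counting error only. Rag1, the most abundant mRNA of the table by counts, thus had no listed circRNA, whereas Xrcc6 had the most of the set.

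Likeness of pattern was measured as Pearson's r of log2 CPM over the 6 libraries, among 9426 genes with a mean of at least 10 CPM, as a description with no p. Nearest to Rag1 were Eci2 (0.998), Cbfa2t2 (0.994), Slc35b4 (0.993), Znrf3 (0.983) and Ifngr1 (0.983). Nearest to Dntt were Srgn (0.979), Cd96 (0.971), Dusp1 (0.968), Pdcd4 (0.965) and Phf21a (0.961). Srgn, for example, averaged 66.5 CPM at 2W, 83.1 CPM at 6W and 63.2 CPM at 3M, while Eci2 averaged 87.9, 64.8 and 60.1 CPM.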

How the data were processed

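RNA from the thymus of wild type male C57BL/6 mice at 2W, 6W and 3M was analysed in 6 ribosomal RNA-depleted libraries (dUTP strand marking), 2 per age, grouped by the age in their labels. The authors deposited estimated counts and FPKM per transcript for mRNAs (77525 rows, 84.1% of count values not whole) and junction counts for circRNAs, which were taken as deposited. The submitters' processing notes list Bowtie 0.12.2 and the build mm8 without saying for which table, and the program behind the estimated counts is not given in the sources used here. The miRNA libraries and the lncRNA table were not used here.

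Estimated counts were summed by gene symbol, with 665 genes joined over letter case, and rounded. The 372 rows without a symbol (0.6995% to 1.1954% of counts) were left out. The fit over all 6 libraries used edgeR 4.0.16 (TMM scaling, filterByExpr by age, quasi-likelihood F test, prior count 0.125, Benjamini-Hochberg over 14805 genes) in R 4.3.3, and a gene was called at an adjusted p under 0.05. The procedure was tested on simulated data. DESeq2 1.42.0, limma 3.58.1 on log2(FPKM + 0.1) and log2(FPKM + 1), total count scaling, no filter, 4-library fits, a replicate block, exact symbols, annotated transcripts only, and leaving out each library were alternatives. A fit without the 10 genes in the scaling was added after the data were seen. Depths of 16519753 to 22553481 counts per library leave Nhej1, at 24 to 76 counts, as the least precisely counted member. Spearman's rho over the 14805 tested genes was 0.983 to 0.993 within ages and 0.968 to 0.988 between ages.

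All 10 members were named, and from each related list every called gene and the smallest unadjusted p values of the others; Tcf3, Atm, Trac and Trdc were named after their values were seen. The members and lists were chosen with earlier results of these data known. The 2 biological replicates per age limit every p to the spread seen among 6 libraries.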

Additional observations from a re-analysis of the deposited data

How the results depend on the processing

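The calls of Rag1 and Lig4 between 3M and 2W were close to the threshold and depended on the setting, while their direction did not in any alternative run. Of all tested genes, the reported edgeR fit called 1630 between 3M and 2W. The alternatives with no single library left out called 663 to 2200 genes. The number of the 10 genes called between 3M and 2W was 2 in the reported edgeR fit, 4 with DESeq2 (also Rag2 and Xrcc6), 3 without a filter, 1 with exact symbols, 1 with limma on log2(FPKM + 0.1) and on log2(FPKM + 1), 2 with the 10 genes left out of the scaling, and 0 with total count scaling, with the 4 libraries of the ages compared and with annotated transcripts only. Leaving out 1 library gave 0 to 3, with fewer residual degrees of freedom. For 3M against 6W the number was 1 with DESeq2 and 0 otherwise, and for 6W against 2W it was 0 throughout. Samples with the same replicate number did not deviate together in every pair of ages (r = −0.06, −0.18 and 0.35), so the numbers were not taken to pair them. With a replicate block, 0 of the 10 genes were called between 3M and 2W (adjusted p = 0.0918 for Rag1 and 0.0849 for Lig4), and 742 of all genes in place of 1630. Over the alternatives, the genes called among all tested ranged from 0 to 888 for 6W against 2W (257 reported), 0 to 341 for 3M against 6W (1 reported) and 239 to 2200 for 3M against 2W. The log2 ratio of Rag1 and Rag2 to Dntt lay between −0.59 and −0.47 for 6W against 2W and between −0.47 and −0.34 for 3M against 2W when a library was left out. That to the end joining genes then lay between −0.192 and 0.0165 for 6W against 2W and between −0.118 and 0.0912 for 3M against 2W. With FPKM it was −0.21 for 6W against 2W, 0.28 for 3M against 6W and 0.0712 for 3M against 2W. Small log2 fold changes changed sign. For 3M against 2W, Dntt was 0.0469 with total count scaling, 0.0541 and 0.0540 with limma and −0.0832 to 0.0433 with a library left out, and Xrcc5 was 0.00079 with total counts, 0.0052 and 0.0048 with limma and −0.170 to 0.0437 with a library left out. Prkdc was −0.231 to 0.0566, Skp2 −0.289 to 0.0818 and Vprbp −0.106 to 0.456 with a library left out, and Skp2 0.0072 and 0.0068 with limma. For 3M against 6W, Dclre1c was 0.0057 with annotated transcripts only and −0.278 to 0.167 with a library left out. For 6W against 2W, Xrcc6 was −0.0102 to 0.168 and Nhej1 −0.0525 to 0.447 with a library left out. The causes were not tested.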
